A study of Rattus norvegicus with 14 samples.

Results

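Protein kinases attach phosphate to other proteins and phosphatases take it off, and most signals that reach a Schwann cell from the axon or the matrix pass through such pairs. In Schwann cells, neuregulin acting on ERBB receptors drives the ERK cascade and the PI3K to AKT pathway, both of which are needed for myelination, whereas cAMP, in culture, pushes the cells from proliferation towards the myelinating state. Some, but not all, of the dual specificity phosphatases (DUSPs) switch off MAP kinases, and the subunits of PP1 and PP2A decide where the main serine-threonine phosphatases act. The genes described here were taken by symbol: every gene of the deposited table whose symbol begins as those of the MAP kinases and their upstream kinases, the cyclin-dependent kinases (CDKs) and their inhibitors, the calmodulin, cAMP, AMP and C kinases, PP1 to PP6, the DUSPs, the PTPN and PTPR tyrosine phosphatases, PI3K, AKT, the STK kinases or the casein kinases. This gave 48 of 2993 genes with a symbol, and 64 of 4993 transcription start sites (TSSs). Each gene was represented by 1 main TSS, the one with the highest mean level in sciatic nerve.

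The levels are Tn5Prime values in RPM, the reads at a TSS scaled to the library's total, where each read marks the 5′ end of a transcript, so that a level counts 5′ ends and does not depend on transcript length. The 14 libraries were of rat cells: 2 sciatic nerves of adult animals aged 6 to 9 months, 3 control and 3 cAMP-treated populations of purchased primary Schwann cells, 2 RNA samples of parental S16 cells, and 4 ΔSOX10 S16 clones. S16 is an immortalized rat Schwann cell line, and each clone was grown from a single cell after Cas9 cutting in the first coding exon of Sox10, with only frameshift alleles detected. The primary cells were expanded with neuregulin and forskolin, plated in the same medium, kept without both from the next day, and then given 250 µM CPT-cAMP, a cell-permeable cAMP analog, or vehicle for 3 days in medium with 5% fetal bovine serum (FBS), whereas S16 cells were grown in 10% FBS. All TSSs in the table had been chosen by the authors for lying near SOX10 and H3K4me3 ChIP-Seq peaks of nerve, so none of these genes is a random pick with respect to SOX10, the transcription factor that Schwann cells depend on.

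The library totals ranged from 29895599 to 79940274 reads, and 3 reads, used as the floor of detection, corresponded to 0.0375 to 0.1 RPM; floors cover counting error only, since copies made by PCR count as separate reads. Sox10 itself stood at 77.5 and 90.7 RPM in parental S16 cells and at no more than 0.114 RPM in any clone. Markers of the Schwann lineage (7 of 8 listed were measured) summed to 5325 to 5484 RPM in control and 6514 to 7293 RPM in cAMP-treated cells, and to 3569 to 3755 RPM in parental and 11.3 to 22.7 RPM in ΔSOX10 cells. Among markers of other cells, Csf1r of macrophages had no reads in control, cAMP-treated and parental cells, and 2 of 6 fibroblast markers, Col1a1 and Pdgfra, summed to 790 to 892 RPM in control and 366 to 459 RPM in cAMP-treated cells, and to 2201 to 2771 RPM in parental and 2910 to 5171 RPM in ΔSOX10 cells. Nearly all of that sum was Col1a1, and Pdgfra had no reads in the 3 control libraries. Pdgfrb, the 1 mural cell marker measured of 3, rose from 0.33 to 1.91 RPM in control to 22.4 to 26.9 RPM in cAMP-treated cells. Itgb4, the 1 perineurial marker measured of 3, stood at 0.0458 to 2.87 RPM in control and 3.53 to 5.09 RPM in cAMP-treated cells, and had no reads in S16 cells. Pcna, the 1 marker of dividing cells measured of 6, stood at 83 to 116 RPM in control, 130 to 134 RPM in cAMP-treated, 210 to 215 RPM in parental and 94.3 to 188 RPM in ΔSOX10 cells. The part of these markers in the results that follow was not tested, and in bulk libraries fewer cells of a type and less RNA per cell cannot be told apart.

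By family the set held 8 genes of the MAPK cascade, 7 with CDK or CDKN symbols, 5 with AMPK, PKC or related symbols, 14 of PP1 to PP6, 4 DUSPs, Ptpn11, 6 of PI3K and AKT, 2 STK kinases and Csnk2b. A symbol does not always name a kinase or phosphatase: Prkcsh encodes the beta subunit of glucosidase II in the endoplasmic reticulum, Cdk2ap2, Cdk5rap3 and Mapk8ip3 encode partners of kinases, and Akt1s1 encodes PRAS40, an AKT substrate that restrains mTORC1. The DUSPs were Dusp3, Dusp6, Dusp15 and Dusp18. A count of 10 genes (20.8%) had more than 1 TSS in the table, against 23.0% of all genes. The main TSSs were 3 to 195 bp wide (median 74.5 bp, against 77 bp for all genes). They overlapped an H3K4me3 peak in 46 of 48 genes (95.8%, against 96.0%) and a SOX10 peak in 27 (56.3%, against 70.0%), and the others lay up to 4138 bp from the SOX10 peak listed with them. Some members are neighbours on rn5: the main TSSs of Mapk3 and Ppp4c lay 31748 bp apart on chromosome 1, those of Ppp1r10 and Ppp1r18 50071 bp apart on chromosome 20, and those of Cdk2ap2 and Ppp1ca 93765 bp apart on chromosome 1.

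Positions of TSSs are given on rn5 as in the deposited table, and exon or intron positions were not analysed here. For 1 member, Prkag1, the table places the TSS on chromosome X (115017034 to 115017093, minus strand), whereas RefSeq on the newer build GRCr8 lists the gene on another chromosome. Which gene its values belong to is therefore uncertain. Of all genes found in RefSeq, 0.677% (19 of 2808) differed in this way. In 3 of the 43 members with a RefSeq strand, Pik3c2a, Ppp1r12a and Ppp1r16b, the strand differed between the table and RefSeq, against 8.98% of genes, so which strand's transcript was measured is uncertain for them.

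Promoter windows of RefSeq (GRCr8, 250 bases before to 50 after the gene start) were on hand for 43 of the 48 genes. They cannot be placed against the rn5 TSSs base by base, and they serve here to show what letters stand near the annotated starts. The members' windows had a median GC content of 64%, against 61% for the 2395 genes of the table with a window and 52.3% for all 27457 RefSeq windows. On either strand, the SOX core ACAAAG stood in 7 members' windows (16.3%, against 12.1% of the table's genes and 18.3% of all windows), and its variant ACAATG in 5 (11.6%, against 7.18% and 13%). The ETS letters CCGGAAG stood in 12 (27.9%, against 24.0% and 9.22%), the EGR letters GTGGGCG in 6 (14%, against 14.4% and 7.67%), and TATAAA in 3 (6.98%, against 6.14% and 14.3%). The letters TGACGTC, which are most of the cAMP response element, stood in 0 of the 43 windows, against 5.89% and 3.34%. A match is a description of letters and not of a bound site. The following 30-base stretches are those of genes called in the comparisons whose windows held SOX letters upstream of the start, with 1 match per gene in capitals. The Ppp1r18 stretch opens with a further match in lower case, the variant on the other strand. They are written 5′ to 3′ on the gene's strand, so that CTTTGT and CATTGT are ACAAAG and ACAATG on the other strand.
Dusp15 (chr3:161879325-161879354, minus strand, letters beginning at -92 from the gene start): cgcacactagggCTTTGTccggccccccgc
Akt1s1 (chr1:104469650-104469679, plus strand, -174): gtggtgtagaccACAAAGttggcaagggtc
Cdkn1b (chr4:169491378-169491407, plus strand, -114): taaatagacttgCATTGTcaatcatcttct
Ppp2r3a (chr8:110677703-110677732, minus strand, -240): attcgagaaaACAAAGacctacagtaaata
Ppp1r18 (chr20:2892448-2892477, minus strand, -136): cattgtccgtagACAAAGcggtcgccgccc
Dusp18, which rose with cAMP, also held CATTGT, but after its gene start. Members not called, Pik3c2a, Map3k11, Ppp1r36, Cdk10 and Ppp1r10, held SOX letters upstream as well. Of the genes printed, only Dusp15 was called in ΔSOX10 cells, and its main TSS lay 1002 bp from the SOX10 peak listed with it. The windows of Dusp6, Prkcz, Pik3r1 and Map2k1, which are described at length below, held none of the letters searched.

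In sciatic nerve, the members had a median level of 15.1 RPM (range of the means 2.21 to 133 RPM), against 12.0 RPM for all genes. The highest was Cdk2ap2, at 138 and 127 RPM in the nerves, followed by Ppp1ca, which encodes a catalytic subunit of PP1, at 112 and 138 RPM. The ranges of these genes overlapped, so their order is not fixed. Cdk11b followed at 58.8 and 81.3 RPM, then Dusp15 at 80.3 and 44.3 RPM and Csnk2b, the regulatory subunit of casein kinase 2, at 38.0 and 64.9 RPM, and these again overlapped each other. At the low end stood the ERK1 gene Mapk3, at 2.74 and 1.67 RPM, and the atypical protein kinase C gene Prkcz, at 2.01 and 2.53 RPM. Prkca and Map4k4 owed their place to the second nerve, with 175 reads and 226 reads there against 0 reads and 1 read in the first.

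The level relative to nerve differed widely between members. These are descriptions without a test, because the main TSS was chosen by its nerve level and the nerve and primary cell libraries were sequenced on different instruments. The control primary cells had a median of 34.5 RPM over the members and the parental S16 cells 20.3 RPM, against 25.3 and 20.6 RPM for all genes. In control cells 39 of 48 members (81.3%, against 73.9% of all genes) were above their nerve mean, by a median ratio of 2.35 (against 1.89). In the ERK cascade, Map2k1, which encodes the ERK kinase MEK1, was at 4.82 and 3.13 RPM in nerve and 121, 121 and 114 RPM in control cells, a ratio of 29.9. Map2k2 (MEK2) had a ratio of 17.2, while Mapk3 was at 0, 0.0153 and 3.01 RPM in control cells, with a mean below that in nerve. In the opposite direction, Dusp15 had a nerve mean of 62.3 RPM and at most 2 reads in any control library. Cdkn1b encodes the cell cycle inhibitor p27Kip1. Its main TSS, 449 bp from its H3K4me3 peak, was at 19.8 and 35.6 RPM in nerve and 3.10 to 12.4 RPM in control cells. Other TSSs of Cdkn1b differed in direction. The TSS at 232962327 was at 13.7 and 9.56 RPM in nerve and 21.6 to 29.8 RPM in control cells. The TSS at 232962227 was also higher in control cells. The TSS at 232962468 overlapped, at 16.2 and 15.9 RPM against 15.2 to 17.7 RPM. The TSSs at 232963096 and 232966553 were higher in nerve, at most 4.69 RPM. Map4k4, Prkca, Ppp1r12b and Ppp1r16b had no reads in control cells.

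**Figure D1:**
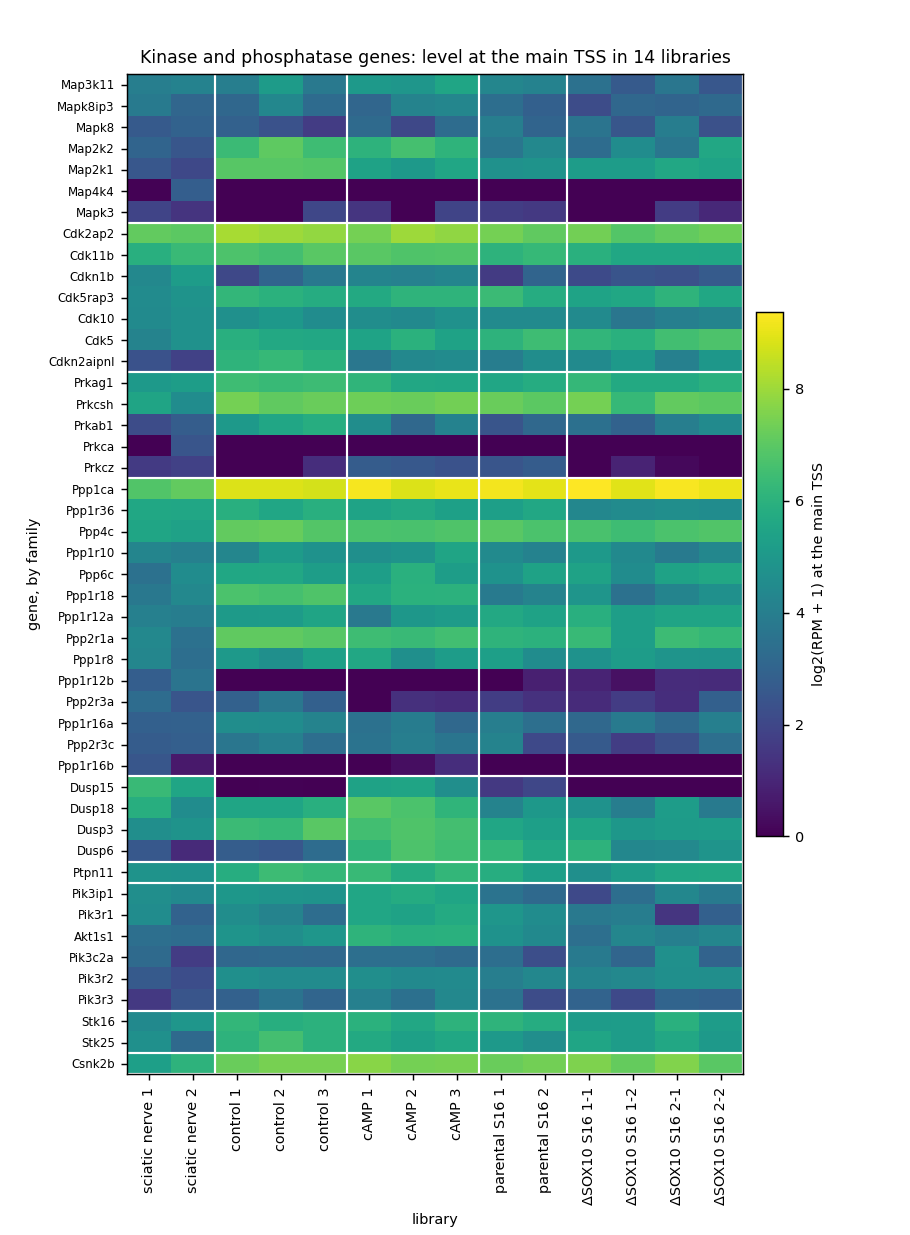
Level of 47 of the kinase and phosphatase genes at its main TSS (rows, grouped by family and ordered by nerve level) in each of the 14 libraries (columns), as log2(RPM + 1) on the colour scale. The rows of Map2k1 and Map2k2 are bright in primary cells and dim in nerve, and Dusp15 is bright in nerve and cAMP-treated cells and dark in the 3 control and 4 ΔSOX10 libraries.

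The first comparison asked which of these TSSs changed when primary Schwann cells were treated with cAMP. The limma test was run on the scale of log2(RPM + 1), with every TSS that passed 1 RPM in 2 or more of the 6 libraries, and a TSS was called changed at a Benjamini-Hochberg adjusted p under 0.05 over all TSSs tested. Of the 48 members, 44 were tested, 8 were higher with cAMP and 9 were lower. The 17 called members are 38.6% of those tested, where 27.4% of all genes were called, 13.5% higher and 13.9% lower. The groups did not overlap in 19 members, where they did not overlap in 40.6% of all genes. The median log2 fold change of the members was 0.01, against -0.03 for all genes. Beside these calls, 3 members were under 0.05 before adjustment only, Map3k11, Ppp1ca and Ppp4c. Replicates here are separate cell populations, and the rest of the text gives values in the order of the library numbers.

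The DUSPs included the largest increases. Dusp15 (chr3:154831401-154831536), a dual specificity phosphatase studied in myelinating glia, had 0, 2 and 1 reads in the control libraries and 41.1, 43.9 and 23.8 RPM with cAMP. The groups did not overlap, and the cAMP level was at least 694-fold higher than the floor of 3 reads per library (log2 fold change on log2(RPM + 1) 5.15, standard error (SE) 0.47, limma adjusted p = 2.32e-08). The mean of the cAMP-treated cells was 0.582 of that in nerve. Dusp6 (chr7:41506384-41506391), which encodes a cytoplasmic phosphatase of ERK and is itself a transcriptional target of ERK signalling, rose from 5.79, 4.84 and 8.98 RPM to 69.8, 106 and 90.1 RPM, 13.5-fold by the means (log2 fold change 3.59, SE 0.28, limma adjusted p = 1.41e-09). Its nerve level was low, at 5.05 and 1.17 RPM. Dusp18 rose from 44.8, 44.5 and 60.0 RPM to 125, 104 and 69.0 RPM, a smaller change of 2.00-fold (log2 fold change 0.96, SE 0.20, limma adjusted p = 0.00104), whose call was lost with all 14 libraries in one model (adjusted p = 0.0849). Dusp3, which acts on ERK and JNK, was at 76.3 to 124 RPM in control and 91.9 to 108 RPM in cAMP-treated cells and was not called (limma adjusted p = 0.784). Thus 3 of the 4 DUSPs rose and none fell, where 13.5% of all genes rose and 13.9% fell. With 4 genes such a share is coarse.

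The MAPK cascade changed at 1 of 7 tested genes (14.3%, against 27.4% of all genes). Map2k1 (chr8:69431803-69431906) fell from 121, 121 and 114 RPM to 40.7, 32.9 and 45.5 RPM, a change of 2.99-fold by the means (log2 fold change -1.57, SE 0.17, limma adjusted p = 2.31e-07). The libraries of each group lay close together and far from those of the other. Its paralogue Map2k2 was at 82.6, 132 and 88.2 RPM in control and 65.9, 96.8 and 67.5 RPM in cAMP-treated cells and was not called (limma adjusted p = 0.155). Mapk3, whose product MEK1 and MEK2 phosphorylate, stayed at or under 3.01 RPM in all 6 libraries and was not called either. In the JNK branch, Map3k11, which encodes the upstream kinase MLK3, was at 15.2, 34.0 and 12.7 RPM in control and 32.0, 29.1 and 44.3 RPM with cAMP, so that 1 control library overlapped the treated ones (log2 fold change 0.84, SE 0.31, limma adjusted p = 0.0566). It was called higher by limma without the second control library (adjusted p = 0.00504), and also with a mean of at least 5 RPM, a pseudocount of 5, TSSs summed per gene and the replicate block (adjusted p from 0.0445 to 0.0454). Mapk8, the JNK1 gene, ranged from 2.18 to 8.96 RPM over the 6 libraries, and Mapk8ip3, which encodes the JNK scaffold JIP3, from 7.43 to 19.4 RPM, with no call. Ptpn11, the gene of the tyrosine phosphatase SHP2 that links receptors to ERK, was at 55.9 to 85.9 RPM in control and 52.9 to 79.1 RPM in treated cells and was not called (limma adjusted p = 0.84).

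**Figure D2:**
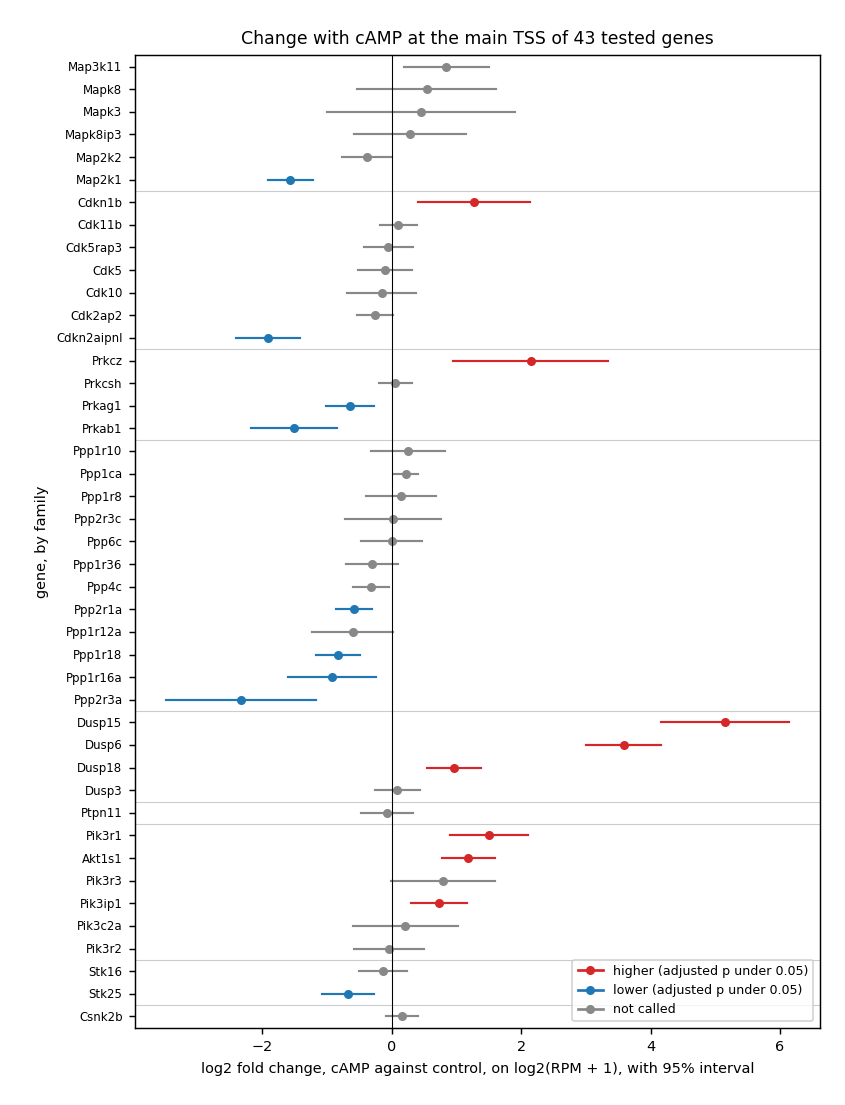
Log2 fold change with cAMP, on log2(RPM + 1), with its 95% confidence interval from limma, for the main TSS of 43 tested genes, grouped by family. Red points were called higher (8 genes), blue points lower (9 genes) and grey points were not called. The 4 DUSPs lie at or to the right of 0, and the 4 called PP1 and PP2A subunit genes all lie to the left.

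Of the PI3K and AKT genes, 3 of 6 rose and none fell, where 13.5% of all genes rose and 13.9% fell. Pik3r1 (chr2:50975654-50975721), which encodes the p85 alpha subunit that stabilizes class I PI3K and tethers it to receptors, rose from 23.1, 17.5 and 9.23 RPM to 46.2, 40.8 and 52.4 RPM, 2.80-fold by the means (log2 fold change 1.51, SE 0.29, limma adjusted p = 0.000435). Every treated library was above every control library, and with all 14 libraries in one limma model the call was lost (adjusted p = 0.0566). Akt1s1 (chr1:101910214-101910275) rose from 27.6, 24.1 and 29.3 RPM to 67.1, 58.8 and 61.6 RPM (log2 fold change 1.18, SE 0.20, limma adjusted p = 0.000107). Its second TSS, 718 bp downstream of the first by their starts, also rose, from a mean of 36.0 to 63.2 RPM (log2 fold change 0.79, SE 0.20, limma adjusted p = 0.00639, and 0.0561 without the first cAMP library). Pik3ip1, whose product is a transmembrane inhibitor of PI3K, rose from 30.4, 28.1 and 26.8 RPM to 46.3, 53.3 and 44.3 RPM (log2 fold change 0.73, SE 0.21, limma adjusted p = 0.0125), and its call was lost without the second cAMP library (limma adjusted p = 0.056). The paralogue of Pik3r1, Pik3r2, stood at 21.8 to 24.2 RPM in control and 21.0 to 24.0 RPM in cAMP-treated cells. Pik3r3, another regulatory subunit gene, was at 6.46 to 10.9 RPM and 9.95 to 19.6 RPM and was not called (limma adjusted p = 0.156). The class II kinase gene Pik3c2a stayed between 7.74 and 9.86 RPM.

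Among the energy and lipid-regulated kinases, Prkcz rose and both AMPK subunit genes fell. Prkcz (chr5:176209917-176210096), which encodes an atypical protein kinase C of cell polarity complexes, had 0, 0 and 70 reads in control and 444, 283 and 285 reads in cAMP-treated libraries, or 0, 0 and 1.36 RPM against 5.55, 5.05 and 4.18 RPM (log2 fold change 2.15, SE 0.58, limma adjusted p = 0.00845). The groups were separate, but the gene was low, and on recovered reads neither edgeR (adjusted p = 0.272) nor DESeq2 (adjusted p = 0.344) called it. Prkab1 (chr12:48117480-48117564), the gene of the AMPK beta subunit that binds glycogen, fell from 32.7, 45.3 and 56.3 RPM to 23.1, 7.94 and 16.9 RPM, 2.80-fold by the means (log2 fold change -1.51, SE 0.32, limma adjusted p = 0.00119). Prkag1, the gene of the AMP-sensing gamma subunit, fell from 86.8, 79.6 and 85.2 RPM to 68.3, 48.1 and 45.9 RPM (log2 fold change -0.64, SE 0.18, limma adjusted p = 0.00991), at the TSS on chromosome X whose assignment is uncertain. Its call was lost without the second (limma adjusted p = 0.0576) or the third cAMP library (limma adjusted p = 0.0605). Prkcsh was at 136 to 170 RPM in control and 149 to 167 RPM with cAMP and was not called.

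Within the phosphatase subunits, 4 of 12 tested genes fell (33.3%, against 13.9% of all genes) and none rose. The 4 encode regulatory or scaffold subunits, as do most genes of this list. Ppp2r1a (chr1:61883848-61883980), the gene of the main scaffold on which PP2A is built, fell from 135, 133 and 122 RPM to 87.6, 80.8 and 90.9 RPM (log2 fold change -0.59, SE 0.13, limma adjusted p = 0.00241, and 0.151 with all 14 libraries in one model). Ppp2r3a, which encodes a calcium-binding regulatory subunit of PP2A, was at 6.53, 12.2 and 6.28 RPM in control and 0, 1.48 and 1.31 RPM with cAMP (log2 fold change -2.33, SE 0.56, limma adjusted p = 0.00332), a call not made on recovered reads by edgeR (adjusted p = 0.132) or DESeq2 (adjusted p = 0.152). Ppp1r18, whose product phostensin ties PP1 to actin, fell from 104, 96.6 and 110 RPM to 48.1, 61.7 and 64.6 RPM (log2 fold change -0.83, SE 0.16, limma adjusted p = 0.000473, and 0.0666 with all 14 libraries in one model). Ppp1r16a, which encodes a membrane-targeting PP1 subunit, fell from 23.2, 22.6 and 17.4 RPM to 10.2, 14.2 and 8.07 RPM (log2 fold change -0.92, SE 0.33, limma adjusted p = 0.0462). That call was close to the threshold and was lost when any one library other than the second cAMP library was left out, at adjusted p-values from 0.0575 to 0.145. The catalytic subunit genes were not called by limma. Ppp1ca was at 475, 470 and 439 RPM in control and 613, 474 and 532 RPM with cAMP (limma adjusted p = 0.0898), but was called higher by DESeq2 (adjusted p = 0.031) and by limma without the second cAMP library (adjusted p = 0.0338). Ppp4c was at 138, 144 and 114 RPM in control and 104, 103 and 109 RPM with cAMP (limma adjusted p = 0.0959), and was called lower by DESeq2 (adjusted p = 0.0255) and by limma without the third control library (adjusted p = 0.0489). Ppp6c was at 36.2 to 47.8 RPM and 35.9 to 60.9 RPM. The myosin phosphatase subunit gene Ppp1r12a was at 33.6 to 43.0 RPM and 12.8 to 34.7 RPM.

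Of the 7 genes with CDK or CDKN symbols, Cdkn1b was called higher, as described with its start sites below, and Cdkn2aipnl lower. Called were thus 28.6% of the 7, against 27.4% of all genes. Cdkn2aipnl (chr10:37195705-37195866), whose product binds the exoribonuclease XRN2 and is no CDK inhibitor, fell from 68.3, 77.6 and 61.7 RPM to 12.2, 19.9 and 22.1 RPM, 3.83-fold by the means (log2 fold change -1.92, SE 0.24, limma adjusted p = 2.25e-06). Its nerve level was 4.11 and 2.55 RPM. Cdk5, a kinase best known from neurons, was at 58.6, 49.1 and 48.1 RPM in control and 42.6, 62.2 and 41.2 RPM with cAMP, with overlapping groups, and Cdk10, Cdk11b, Cdk2ap2 and Cdk5rap3 were not called either. Of the STK genes, Stk25, which encodes a kinase of the Golgi apparatus, fell from 66.4, 94.2 and 63.7 RPM to 51.1, 39.4 and 47.2 RPM (log2 fold change -0.68, SE 0.19, limma adjusted p = 0.0118). Its call was lost without the second control library (limma adjusted p = 0.109) or the second cAMP library (limma adjusted p = 0.0718). Stk16 and the main TSS of Csnk2b were not called.

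**Figure D3:**
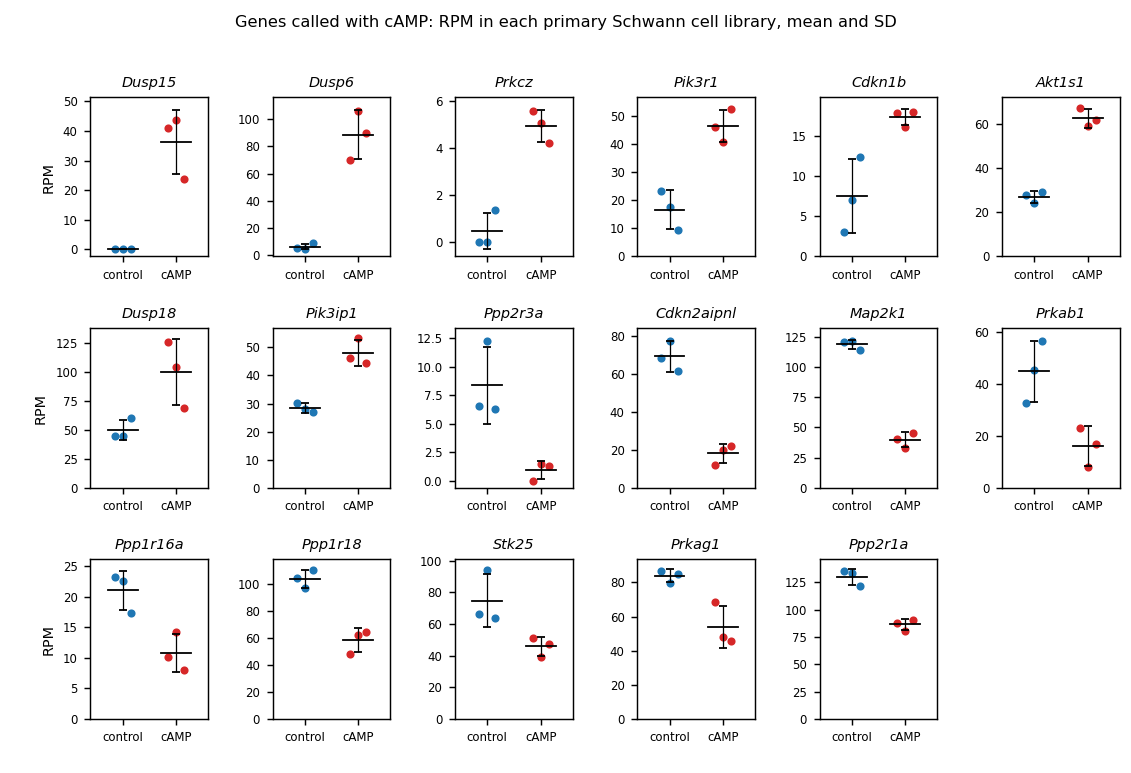
RPM at the main TSS of the 17 genes called with cAMP in each of the 3 control (blue) and 3 cAMP-treated (red) libraries, with the mean (line) and SD (bars). The first 8 panels are genes called higher and the other 9 genes called lower, and in each panel the groups do not overlap.

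Other genes of the pathways, listed for their known roles and not matched by the symbol rule, were measured for 9 of 42 between receptors and ERK, 8 of 20 between PI3K and mTOR, and 4 of 26 of the cAMP pathway. In the first list 2 of 7 tested genes rose with cAMP, the receptor gene Pdgfrb (log2 fold change 3.84) and the transcription factor gene Fos (log2 fold change 0.81), and Jun fell from a mean of 541 to 60.8 RPM (log2 fold change -3.13, limma adjusted p = 7.13e-15). Of all genes, 13.5% rose and 13.9% fell. The neuregulin receptor gene Erbb3 was not called (limma adjusted p = 0.664). In the second list, Deptor, which encodes an inhibitor of mTOR, rose from a mean of 31.5 to 129 RPM (log2 fold change 2.01, limma adjusted p = 2.82e-08), and the other 6 tested genes were not called. Before adjustment 5 of the 7 were under 0.05, 3 higher and 2 lower. In the first list 5 of 7 were, 2 higher and 3 lower, and among all genes 1087 of 2832. In the cAMP list limma called 0 of 4 tested genes, with 0 under 0.05 before adjustment.

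Cdkn1b had 6 TSSs in the table on chromosome 4, all on the plus strand. A first group of 4 began within 869 bp, at 232962227 to 232962232, 232962327 to 232962333, 232962468 to 232962507 and 232963096 to 232963132, and the main TSS by its nerve level lay farther downstream at 232966337 to 232966464, with a last cluster at 232966553 to 232966565. In nerve the main TSS led, at 19.8 and 35.6 RPM, while the third cluster was at 16.2 and 15.9 RPM. In every control library the main TSS was already below the clusters at 232962227, 232962327 and 232962468. It stayed below them in every cAMP-treated library. The order thus differed from that in nerve without cAMP as well, and the main TSS had been chosen by its nerve level. Among these upstream clusters, that at 232962468 had the lowest mean in control cells (16.8 RPM) and the highest with cAMP (120 RPM). The cluster at 232962468 rose from 15.2, 17.4 and 17.7 RPM to 88.4, 139 and 132 RPM, 7.13-fold by the means (log2 fold change 2.74, SE 0.21, limma adjusted p = 1.19e-09). The first cluster rose from 22.0, 18.2 and 14.1 RPM to 57.1, 32.4 and 50.8 RPM (log2 fold change 1.30, limma adjusted p = 0.000785), and the second from 21.6, 23.0 and 29.8 RPM to 54.3, 58.7 and 46.6 RPM (log2 fold change 1.08, limma adjusted p = 0.000788). The main TSS rose from 3.10, 7.08 and 12.4 RPM to 17.9, 16.2 and 18.0 RPM (log2 fold change 1.27, SE 0.42, limma adjusted p = 0.0305), a call that was lost when any one library other than the third control library was left out, at adjusted p-values from 0.0558 to 0.153. The other clusters stayed at or under 2.92 RPM in these 6 libraries.

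**Figure D4:**
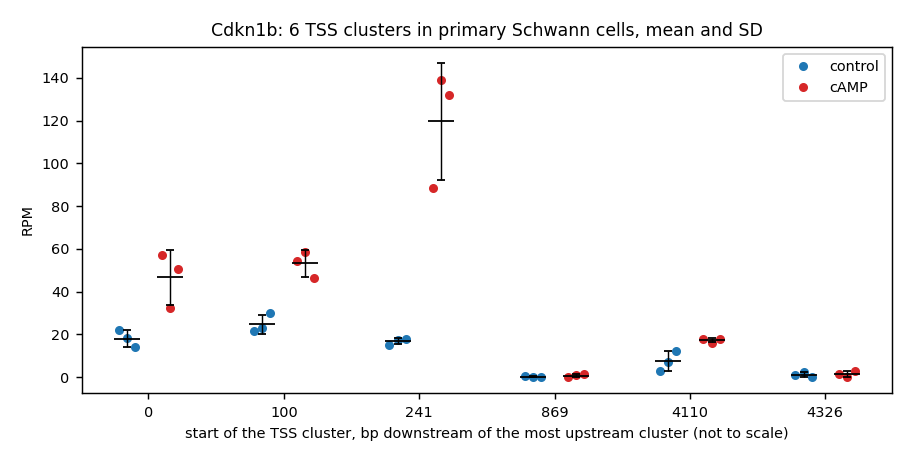
RPM at the 6 TSS clusters of Cdkn1b in 3 control (blue) and 3 cAMP-treated (red) libraries, with the mean and SD; the clusters are ordered along the gene, with the distance of their start from that of the first in bp, and spaced evenly. The cluster 241 bp downstream of the first separates the groups most, at 15.2 to 17.7 RPM against 88.4 to 139 RPM.

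Whether the TSSs of a gene changed unequally was tested with limma's diffSplice and Simes p-values per gene. Of the 7 member genes with at least 2 tested TSSs, 2 were called with cAMP, where 8.91% of such genes were called (41 of 460). In Cdkn1b (adjusted p = 0.0335) the cluster at 232962468 rose by 1.87 more, on the log2 scale, than the gene's other TSSs. In Csnk2b (adjusted p = 0.0357) the minor TSS on chromosome 20 at 7184755 to 7184812 had 2.19, 2.14 and 0.778 RPM in control and no reads in the 3 cAMP libraries, while the main TSS at 7186157 to 7186307 was at 151, 172 and 173 RPM and then at 207, 172 and 173 RPM. The minor TSS passed the filter only through control libraries, so the direction of its change followed from the filter. By themselves neither TSS was called (limma adjusted p = 0.108 for the minor and 0.414 for the main TSS). Neither call of changed TSS use was firm. Leaving out any single library left 0 or 1 of them, and pseudocounts of 0.1 and 5 each kept only 1, Csnk2b and Cdkn1b in turn. In S16 cells, diffSplice called 0 of 6 member genes, where it called 4.8% of such genes, and 1 of the 6, Akt1s1, was under 0.05 before adjustment.

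The second comparison asked which of these TSSs differed between the 4 ΔSOX10 clones and the 2 parental S16 libraries, in the same way. The clones had passed through transfection, puromycin selection and growth from single cells, and the parental libraries were RNA samples of the unmodified line. Loss of SOX10 and these steps cannot be told apart here. Of the 45 members tested, 2 were lower and 0 were higher, a share of 4.44% called against 7.49% of all genes (5.5% lower and 1.99% higher). The groups did not overlap in 8 members, where they did not in 30.1% of all genes. Before adjustment 6 members were lower and 1 higher at a p under 0.05, and on recovered reads edgeR and DESeq2 called 0 members higher. The median log2 fold change of the members was -0.07 on the RPM scale, where that of all genes was -0.17. After TMM scaling these medians were 0.06 and -0.03, and 20 of the 45 members had a negative log2 fold change in place of 25. Directions near 0 were thus set by the scaling, and the values of other members are given as levels only.

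The genes called lower were Prkcz and Dusp15, both of which had risen with cAMP. Prkcz had 204 and 220 reads in the parental libraries and 0, 36, 6 and 0 reads in the clones, or 4.61 and 5.70 RPM against 0, 0.915, 0.164 and 0 RPM. It was 19.1-fold lower by the means (log2 fold change -2.33, SE 0.42, limma adjusted p = 0.00897). Dusp15 had 87 and 116 reads, or 1.97 and 3.01 RPM, in the parental libraries and 0 reads in all 4 clones, and was at least 31.1-fold lower against the floor of 3 reads per library (log2 fold change -1.79, SE 0.35, limma adjusted p = 0.0134). In each gene every clone was below both parental libraries, and only through these did the gene pass the filter. Both genes were low in S16 cells, and Dusp15 was far below its level in nerve or in cAMP-treated cells. On recovered reads DESeq2 called Dusp15 (adjusted p = 0.00255) but not Prkcz (adjusted p = 0.17), and edgeR called neither (adjusted p = 0.0733 and 0.308). With either parental library left out neither gene was above 1 RPM in 2 libraries, and both went untested.

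Other genes differed before adjustment only. Ppp1r36, which encodes a PP1 partner, was at 38.0 and 48.0 RPM in parental cells and 19.1, 22.0, 24.0 and 22.5 RPM in the clones labelled 1-1, 1-2, 2-1 and 2-2 (log2 fold change -0.94, SE 0.24, limma adjusted p = 0.0505), just past the threshold, and it was called with no filter and with pseudocounts of 0.1 and 5. Pik3r1 was at 29.7 and 22.7 RPM in parental cells and 12.99, 14.52, 1.72 and 6.24 RPM in the clones (log2 fold change -1.74, SE 0.66, limma adjusted p = 0.176). The spread among the clones was large, and the clones labelled 2 were the lowest. Map3k11 was at 18.8 and 16.6 RPM and then 10.2, 5.34, 11.9 and 4.82 RPM (limma adjusted p = 0.171), and Cdk11b at 65.9 and 76.1 RPM and then 61.5, 46.6, 46.6 and 45.8 RPM (limma adjusted p = 0.238). Map2k1 was the 1 member with higher values, at 25.7 and 27.1 RPM in parental cells and 35.2, 35.3, 48.7 and 41.8 RPM in the clones (log2 fold change 0.58, SE 0.24, limma adjusted p = 0.215). In all 5 genes the groups did not overlap. Dusp6 was at 72.2 and 48.8 RPM in parental cells and at 66.0, 19.0, 20.1 and 27.5 RPM in the clones (log2 fold change -1.01, SE 0.47, limma adjusted p = 0.284). The clone labelled 1-1 stood apart from the other 3, and without it Dusp6 was called lower (limma adjusted p = 0.0255).

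**Figure D5:**
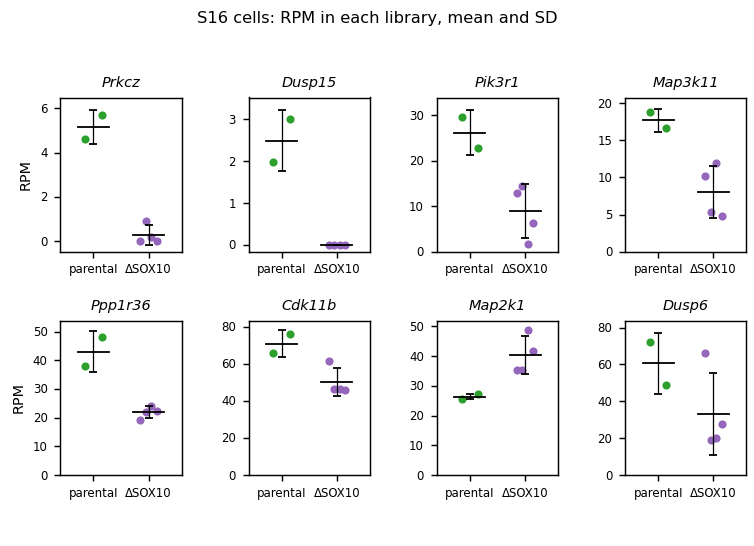
RPM at the main TSS in each of the 2 parental (green) and 4 ΔSOX10 (purple) S16 libraries, with the mean (line) and SD (bars), for the 7 genes under 0.05 before adjustment and Dusp6. Prkcz and Dusp15, the genes called, lie at or near 0 in every clone, and Dusp6 overlaps between the groups through 1 clone.

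The other genes stayed closer to their parental levels or varied among the clones. Ppp1ca was at 594 and 507 RPM in parental cells and 662, 489, 624 and 542 RPM in the clones, Ppp4c at 124 and 104 RPM and then 102, 87.2, 104 and 113 RPM, and Csnk2b at 151 and 166 RPM and then 188, 140, 192 and 125 RPM. Map2k2 ranged from 8.84 to 48.8 RPM over the clones, a range that includes the parental values of 11.9 and 19.8 RPM. Akt1s1, which rose with cAMP, was at 26.4 and 20.9 RPM in parental cells and 9.76, 18.9, 15.5 and 18.8 RPM in the clones, without overlap but not called (limma adjusted p = 0.394). Prkab1, which fell with cAMP, was at 4.59 and 7.93 RPM and then 6.74 to 21.3 RPM (limma adjusted p = 0.359). A p that misses the threshold does not show that these levels were equal. Outside the symbol rule, Erbb3 fell from a mean of 22.8 RPM to 0.00637 RPM in the clones (limma adjusted p = 7.85e-05). The latter lies below the floor of 3 reads in these libraries, 0.0763 to 0.0855 RPM. Ddr1, which encodes a collagen receptor kinase, fell from 8.58 to 0.688 RPM, and Deptor from 110 to 14.5 RPM (limma adjusted p = 0.00813 and 0.0018). The call of Ddr1 was lost without either parental library (adjusted p = 0.11 and 0.161). The genes called lower were 2 of 7 tested between receptors and ERK and 1 of 7 between PI3K and mTOR, with none called higher, and limma called 0 of 4 of the cAMP pathway, with 0 under 0.05 before adjustment. Of all genes, 5.5% were called lower in the clones.

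The clones labelled 1-1 and 1-2 were also set against those labelled 2-1 and 2-2. The authors obtained the clones with 2 independent guide RNAs, but the labels do not say whether the first number stands for the guide. None of the 45 members was called by limma, nor was any of the 2763 genes tested, a share of 0%, and 4 members were under 0.05 before adjustment: Pik3r1, Mapk3, Pik3ip1 and Cdk5. Pik3ip1 was at 3.21 and 9.53 RPM in the clones labelled 1 and 19.2 and 13.7 RPM in those labelled 2, and Mapk3 had no reads in the former and 2.21 and 1.11 RPM in the latter.

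Side by side, the comparisons called 17 members with cAMP and 2 in ΔSOX10 cells. The 2 genes in both lists, Dusp15 and Prkcz, are 11.8% of the first list and 100% of the second, and both were higher with cAMP and lower in ΔSOX10 cells. Both passed the filter on low values only through the cAMP-treated and the parental libraries, where they were high. Their directions thus followed from the filter, and their overlap is a description only. Over all genes, 125 were in both lists, 16.1% of the first and 60.4% of the second, and 48.7% of the 152 genes lower in ΔSOX10 cells were higher with cAMP. Of the other 15 genes called with cAMP, none was called in ΔSOX10 cells. Dusp6 and Pik3r1, which were higher with cAMP, had parental means of 60.5 and 26.2 RPM and ΔSOX10 means of 33.1 and 8.87 RPM. The TSSs of Akt1s1, both higher with cAMP, had means of 23.7 and 15.7 RPM at the first and of 18.8 and 27.1 RPM at the second in parental and ΔSOX10 cells. Map2k1, which was lower with cAMP, had a parental mean of 26.4 RPM and a ΔSOX10 mean of 40.2 RPM. Not all of the 15 ran opposite in this way. Pik3ip1, higher with cAMP, had means of 9.52 and 11.4 RPM in parental and ΔSOX10 cells. Ppp1r16a, lower with cAMP, had means of 12.4 and 11.4 RPM. These last differences did not pass the test.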

How the data were processed

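Tn5Prime libraries of 14 rat samples were analysed. The authors trimmed reads with Cutadapt 1.14, mapped them to rn5 with STAR 2.5.2a, clustered read starts with Paraclu, counted reads per TSS with featureCounts (versions from the submitters' processing notes) and assigned TSSs to genes by distance and strand. The deposited values are RPM per TSS and library. The 4 columns of the authors' own edgeR 3.24.3 comparisons, which hold log2 fold changes and adjusted p-values, were not used. Values were whole multiples of 1 read (tolerance 0.1) at 100% of TSSs in 10 libraries and at 93.2 to 94.6% in the parental S16 libraries and the clones labelled 1-1 and 1-2, where some values had been deposited rounded. The recovered reads gave the library totals.

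The members and lists were chosen with earlier results of these data known. In R 4.3.3, limma 3.58.1 (lmFit, eBayes with trend, two-sided) was run on log2(RPM + 1) over the 6 libraries of each comparison, without covariates. TSSs needed more than 1 RPM in 2 libraries, and p-values were adjusted by Benjamini-Hochberg over all of them. Counts over all genes use 1 main TSS per gene. Fold changes on this scale understate changes of low TSSs. TSS use was tested with diffSplice. Named by rule were the members called in either comparison (up to 15 per direction), members with known roles from a list, those with changed TSS use and the 5 highest in nerve, 35 of the 48 in all; other members named were chosen after their values were seen. The alternatives were edgeR 4.0.16 or DESeq2 1.42.0 with the recovered reads, TMM or median-ratio scaling, no filter on low values, a filter at a mean of 5 RPM, a pseudocount of 0.1 or 5, a minimum change of 1 on the log2 scale, one model of all 14 libraries, TSSs summed per gene, another choice of main TSS, each library left out, and a replicate block. Motifs were searched in RefSeq windows of GRCr8. The scripts were tested on simulated data. The values of 1 member, which the counts include, are not reported here.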

Additional observations from a re-analysis of the deposited data

Results flagged for a closer look

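In the 4 ΔSOX10 clones, 31 members were checked with Dixon's test for a value far from the other 3, and 1 passed it. Cdk11b, which encodes a cyclin-dependent kinase, was at 61.5 RPM in the clone labelled 1-1 and between 45.8 and 46.6 RPM in the other 3, a gap of 0.949 of the whole range. Chance alone gives about 1 such gap in 20 groups. Dusp6 in the same clone, at 66.0 RPM against 19.0 to 27.5 RPM, had a gap of 0.819 of the range, just under the limit of the test.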

How the results depend on the processing

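Of the 8 genes higher and 9 lower with cAMP, 4 and 5 were called with all 14 libraries in one model, and 4 were lower by at least 1 on the log2 scale. Leaving out 1 library gave 7 to 8 higher and 7 to 9 lower, and edgeR on recovered reads gave 6 and 7. The 2 genes lower in ΔSOX10 cells became 0 with a mean of at least 5 RPM, which removes both, 0 by edgeR, 1 by DESeq2 and 4 with all 14 libraries, and up to 3 with 1 clone left out. With either parental library left out, neither gene passed the filter and both went untested. The 2 genes with changed TSS use under cAMP became 1 with a pseudocount of 0.1, 1 with a pseudocount of 5, 1 with a mean of at least 5 RPM, 1 by the F test and 0 to 1 with 1 library left out. The causes were not tested. With the replicate block 9 genes were higher (with Map3k11 gained), 9 lower and 0 had changed TSS use, and same-numbered control and cAMP libraries did not deviate together (r = 0.029, 0.0075 and 0.038). No paired analysis was possible for S16 cells because the groups share no replicate numbers. Of the 39 comparisons of named genes given as levels only, 19 changed sign in some alternative and 0 were called in any. The fold changes of 39 single genes and TSSs were followed, and each kept its sign in every alternative that gave a value. With all 14 libraries the calls of Cdkn1b, Dusp18, Pik3ip1, Pik3r1, Ppp1r16a, Ppp1r18, Ppp2r1a and Stk25 were lost. Of the genes called in ΔSOX10 cells, Prkcz and Dusp15 rest on 204 and 220 and on 87 and 116 reads in the parental libraries.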
